A study of Rattus norvegicus with 9 samples.

Results

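Cytochrome P450s and the enzymes that conjugate or reduce what they make were followed in 9 rat kidney RNA-seq libraries, as every gene of the authors' deposited FPKM table whose symbol names a family of cytochrome P450 (Cyp), UDP-glycosyltransferase (Ugt), sulfotransferase (Sult), aldehyde dehydrogenase (Aldh) or aldo-keto reductase (Akr). Cyp51, a sterol synthesis enzyme, was left out. This rule gave 56 of the 11235 genes of the table: 24 Cyp, 3 Ugt, 5 Sult, 13 Aldh and 11 Akr genes. The libraries came from Sprague-Dawley rats of wild-type genotype aged 6 to 8 weeks, in 3 groups of 3 libraries. In the I/R + rapamycin group, kidney ischaemia of 45 min was followed by reperfusion in rats given rapamycin, an inhibitor of the kinase complex mTORC1. Rats of the I/R group had the same ischaemia and reperfusion without the drug, and sham rats had surgery without ischaemia. The labels do not settle the rest: one text names male rats given 1 mg/kg a day by intraperitoneal injection, and another names both sexes, oral gavage from the day before surgery, 1 or 2 mg/kg a day and 3 or 7 days of reperfusion. They also name both kidney and renal tubular cells as the source, and do not say that each library came from its own animal, so p-values measure only the spread between these libraries.

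Cytochrome P450s insert oxygen into fatty acids, sterols, vitamin D and drugs with electrons passed on by a reductase, and UDP-glycosyltransferases and sulfotransferases then attach a sugar or a sulfate that makes the product easier to excrete. Aldehyde dehydrogenases oxidise aldehydes to acids and aldo-keto reductases reduce aldehydes and ketones to alcohols, so both act on carbonyl groups. In the kidney these enzymes sit largely in the proximal tubule, which activates and inactivates vitamin D, makes fatty acid mediators that act on vessels and salt transport, and secretes conjugated drugs.

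The 9 libraries held between 44582251 and 60538627 counted reads each. Every gene of the FPKM table reached 1 FPKM in 8 or all 9 libraries, and enzyme genes without a row in it are not analysed here. Cyp27b1, Cyp2j3 and Ugt1a1, for example, have no row. Symbols come from that table alone, so a missing row does not show that a gene was low. All 56 enzyme genes passed the filter on low counts. On the first principal component of all tested genes, which held 26.2% of the variance, sham 3 and I/R 1 lay opposite to I/R + rapamycin 1 and 2. Transcript abundance in whole tissue cannot tell fewer cells of a type apart from less RNA per cell. Log2 fold changes also moved with the transcript length implied by counts over FPKM. The Spearman correlation over 11232 genes was -0.48 in I/R + rapamycin against I/R, -0.26 in I/R + rapamycin against sham and 0.30 in I/R against sham. The median implied length was 2672 bases over the enzyme genes and 3203 over the genes of the table. A fit with this trend removed is described below where it called an enzyme gene, and its fold changes for other genes are not given.

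The enzyme genes spanned over 3 orders of magnitude in level. Sult1c2a, a phenol sulfotransferase of the 1C subfamily, was the highest, at 1207 to 2090.4 FPKM. It was followed by Cyp2c23, the main arachidonate epoxygenase of the rat kidney, at 644 to 889.9 FPKM, Aldh6a1 of valine breakdown at 423 to 530.0 FPKM and Akr1a1, the general aldehyde reductase, at 323 to 470.1 FPKM. Cyp2u1, a fatty acid hydroxylase, was the lowest by its mean, at 1.19 to 1.801 FPKM. Summed by family, FPKM per library had a mean of 2075 ± 93.96 in I/R + rapamycin, 2342 ± 65.8 in I/R and 2248 ± 204 in sham for the P450s, 1948 ± 153 in I/R + rapamycin, 1868 ± 196 in I/R and 1506 ± 239.6 in sham for the sulfotransferases, 1239 ± 63.7 in I/R + rapamycin, 1308 ± 52.9 in I/R and 1282 ± 84.7 in sham for the aldehyde dehydrogenases, 1159.6 ± 60.02 in I/R + rapamycin, 1070.5 ± 176 in I/R and 1038 ± 99.8 in sham for the aldo-keto reductases and 303 ± 81.6 in I/R + rapamycin, 212 ± 13.4 in I/R and 203 ± 125 in sham for the UDP-glycosyltransferases (SD, n = 3 each). Sulfotransferase sums therefore stood lowest in sham, with all 3 I/R + rapamycin and all 3 I/R libraries above all 3 sham libraries, and Sult1c2a made up most of them.

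**Figure D1:**
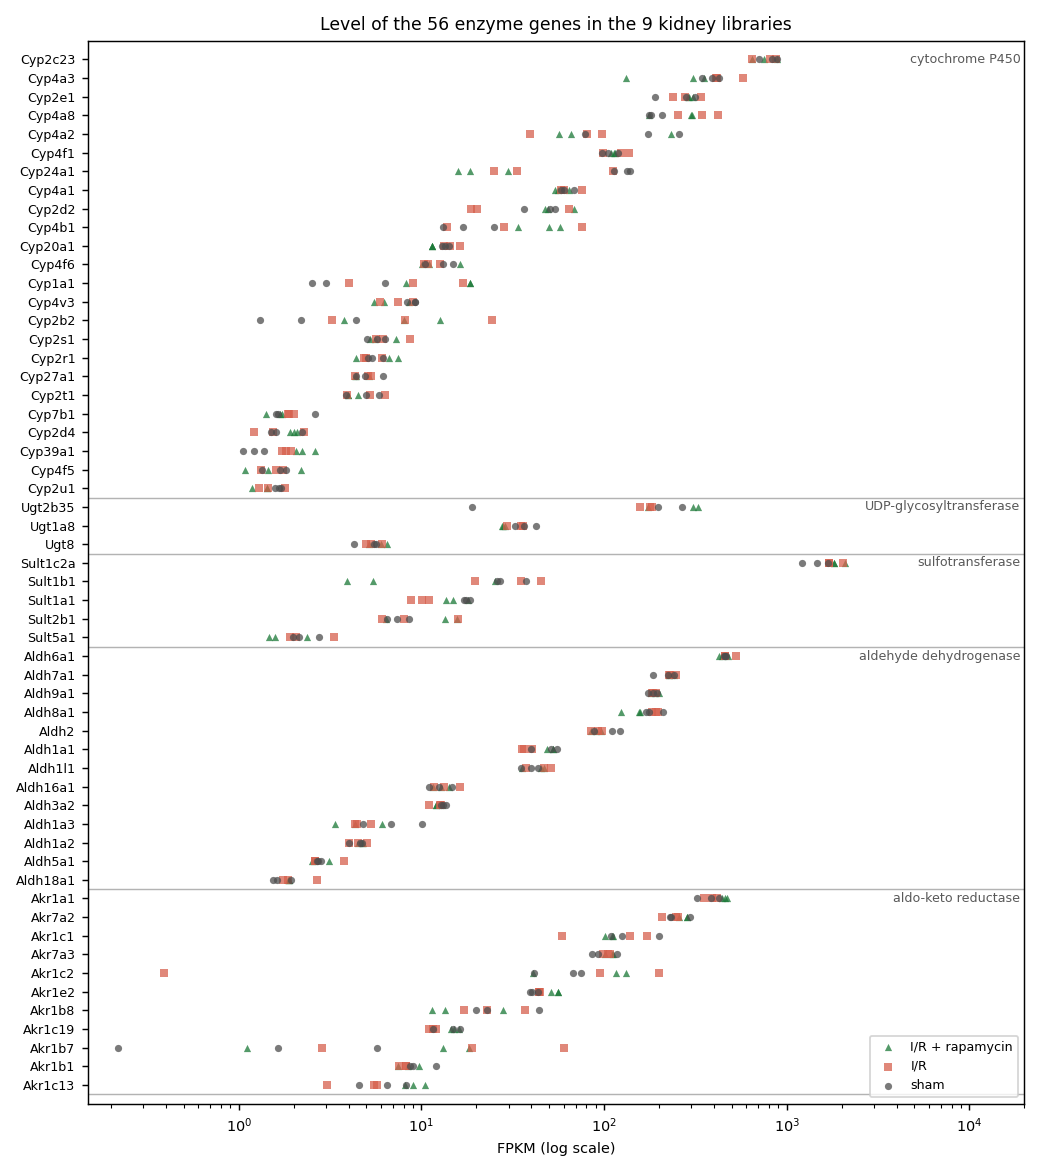
FPKM (horizontal log axis) of each of the 56 enzyme genes in each of the 9 libraries, one mark per library, with genes ordered by mean level within each family. Most genes lie in a narrow span, while Akr1c2, Akr1b7 and Ugt2b35 each have a library far below the rest.

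None of the 56 enzyme genes passed edgeR's quasi-likelihood test at a Benjamini-Hochberg adjusted p under 0.05 in any of the 3 comparisons. Over all 17335 genes tested the test called 0.127% in I/R + rapamycin against I/R, 0.156% in I/R + rapamycin against sham and 0.0577% in I/R against sham. At an unadjusted edgeR p under 0.05, 10 enzyme genes (17.9%) stood out in I/R + rapamycin against I/R, where 16.3% of all tested genes and 19.6% of the genes of the FPKM table did. In I/R + rapamycin against sham the count was 9 (16.1%, against 13.8% and 15.1%), and in I/R against sham it was 8 (14.3%, against 9.42% and 10.6%). These edgeR shares lay near the background. DESeq2's Wald test was run as an alternative. In I/R + rapamycin against I/R it called 5 of the 56 enzyme genes and 4.47% of all genes it tested. It called 5 of the 56 and 3.07% of all in I/R + rapamycin against sham, and 2 of the 56 and 1.39% of all in I/R against sham. The enzyme genes' shares by DESeq2 were the larger, a difference that was not tested.

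The median log2 fold change over the 56 genes was 0.04, 0.10 and 0.03 in the same order of comparisons, beside 0.01, 0.00 and 0.00 over all tested genes. The groups of libraries did not overlap in normalised counts for 12, 14 and 7 enzyme genes, where 24.6%, 19.3% and 14.6% of all tested genes did not overlap. The 2 comparisons with rapamycin share their rapamycin libraries, the 2 against sham share their sham libraries, and the 2 that involve untreated I/R share those, so their values below stand side by side and do not support one another.

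**Figure D2:**
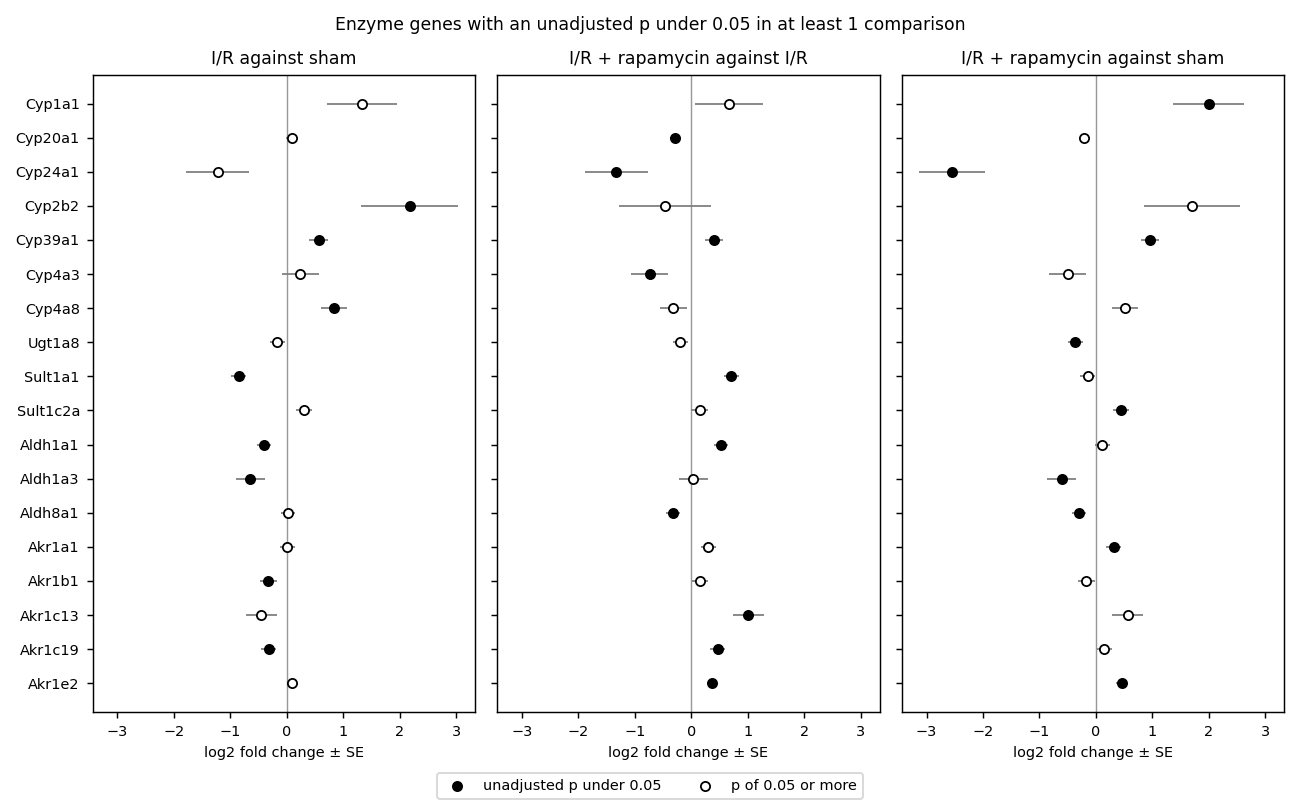
Log2 fold change with its standard error (horizontal axis) from edgeR for the 18 enzyme genes with an unadjusted p under 0.05 in at least 1 of the 3 comparisons, one panel per comparison. Filled marks have an unadjusted p under 0.05 and open marks do not, and none passed the adjusted threshold.

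Among the P450s of vitamin D and sterol metabolism, Cyp24a1 (ENSRNOG00000013062), the 24-hydroxylase that inactivates vitamin D, had the largest fitted difference. It was at 15.8, 18.5 and 29.9 FPKM in I/R + rapamycin, 112, 33.2 and 24.9 FPKM in I/R and 114, 134 and 139 FPKM in sham. All 3 rapamycin-treated libraries were far below all 3 sham libraries, and in the I/R group 1 library stood just under the lowest sham value while the others stood near the rapamycin-treated ones. The log2 fold change was -2.55 (SE 0.58, edgeR adjusted p = 0.167, DESeq2 adjusted p = 0.00299) in I/R + rapamycin against sham. It was -1.33 (SE 0.56, edgeR adjusted p = 0.305) in I/R + rapamycin against I/R, while it was -1.22 (SE 0.56, edgeR adjusted p = 0.565) in I/R against sham. The I/R values rest on 1 library: without I/R 1, the log2 fold change in I/R against sham was -2.15 with an edgeR adjusted p of 0.0348. In I/R + rapamycin against sham the edgeR adjusted p was 0.0139 with the 6 libraries of those groups alone, and 0.0167 without I/R 1 and sham 3. Together with DESeq2 these were the only 3 of 18 alternative settings that called Cyp24a1 there. The setting without I/R 1 and sham 3 was added after the data were seen. Vdr, the vitamin D receptor through which vitamin D induces Cyp24a1, was at 17.3, 21.5 and 23.9 FPKM in I/R + rapamycin, 53.1, 32.5 and 30.1 FPKM in I/R and 41.2, 34.6 and 48.6 FPKM in sham. Its groups with and without rapamycin did not overlap, at log2 fold changes of -0.81 against I/R and -0.94 against sham, and it was not called (edgeR adjusted p = 0.141 and 0.12).

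The vitamin D 25-hydroxylases stood apart from Cyp24a1. Cyp2r1 was at 6.18 ± 1.59 FPKM in I/R + rapamycin, 5.302 ± 0.657 in I/R and 5.56 ± 0.532 in sham, and Cyp27a1, which also hydroxylates bile acid precursors, at 4.62 ± 0.451, 4.91 ± 0.504 and 5.14 ± 0.918 FPKM in I/R + rapamycin, I/R and sham (SD, n = 3 each). Both overlapped between all groups. Cyp39a1 (ENSRNOG00000010519), the oxysterol 7-alpha-hydroxylase that prefers 24-hydroxycholesterol, had the smallest p of the 56 genes in I/R + rapamycin against sham. It was at 2.61, 2.05 and 2.23 FPKM in I/R + rapamycin, 1.83, 1.72 and 1.93 FPKM in I/R and 1.22, 1.06 and 1.38 FPKM in sham. The 3 groups formed separate bands, highest with rapamycin and lowest in sham, at a low level throughout. Its log2 fold change was 0.96 (SE 0.16) in I/R + rapamycin against sham, 0.40 (SE 0.16) in I/R + rapamycin against I/R, with 0.56 (SE 0.16) in I/R against sham, at edgeR adjusted p-values of 0.0645, 0.267 and 0.308. DESeq2 called it higher in I/R + rapamycin than in sham (adjusted p = 6.78e-05), and so did edgeR when I/R 1 and sham 3 were left out (adjusted p = 0.0452) or the length trend was removed (adjusted p = 0.0389). These were the only 3 of 18 alternative settings that called it there, and the edgeR settings among them were added after the data were seen. Cyp7b1, the other oxysterol 7-alpha-hydroxylase, was at 1.61 ± 0.172 FPKM in I/R + rapamycin, 1.92 ± 0.0848 in I/R and 1.95 ± 0.569 in sham (SD, n = 3 each), with the highest value in sham 3.

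The promoter of Cyp39a1 is shown because the gene stood in 3 separate bands. The window holds the 250 bases before the transcript start in RefSeq's GRCr8 table, at chr9:24804061-24804310 on the minus strand, read 5′ to 3′ along the gene, and capitals mark AGGTCA, the half-site bound by nuclear receptors, searched on both strands:
Cyp39a1: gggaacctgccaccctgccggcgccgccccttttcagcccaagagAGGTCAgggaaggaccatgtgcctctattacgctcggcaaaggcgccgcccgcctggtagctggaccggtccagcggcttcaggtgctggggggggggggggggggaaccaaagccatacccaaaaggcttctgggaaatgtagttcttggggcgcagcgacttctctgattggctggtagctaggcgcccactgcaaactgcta
Of the 56 enzyme genes, 47 had a window in that table, and 10 of the 47 (21.3%) held AGGTCA, as did 13.7% of all 27457 windows. The core of the aryl hydrocarbon receptor's element, GCGTG, was in 18 (38.3%, against 27.2% of all windows), and TGACNNNGC, the core of the antioxidant response element, in 4 (8.5%, against 10.2%). Read on the other strand AGGTCA is TGACCT, so its matches can coincide with TGACNNNGC, and a match describes the sequence only.

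Fatty acid P450s included some of the highest P450 levels after Cyp2c23, and none was called by edgeR. Cyp4a8 (ENSRNOG00000008842), a kidney member of the Cyp4a subfamily of fatty acid omega-hydroxylases, was at 299, 302 and 176 FPKM in I/R + rapamycin, 255, 343 and 421 FPKM in I/R and 206, 177 and 181 FPKM in sham. All I/R libraries were above all sham libraries, and I/R + rapamycin 3 stood with sham while the other 2 rapamycin-treated libraries stood with I/R. In I/R against sham the log2 fold change was 0.84 (SE 0.24, edgeR adjusted p = 0.305), and DESeq2 called it (adjusted p = 0.0205). In I/R + rapamycin it was 0.52 against sham and -0.32 against I/R (edgeR adjusted p = 0.373 and 0.536). Cyp4a1, another omega-hydroxylase, kept within 54.00 to 76.1 FPKM in the 9 libraries.

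Cyp4a2 and Cyp4a3, a pair of near-identical omega-hydroxylase genes, stood at or near opposite ends of their ranges in I/R + rapamycin 3 and I/R 1. Cyp4a2 (ENSRNOG00000064139) was at 56.8, 65.6 and 231 FPKM in I/R + rapamycin, 39.6, 97.3 and 80.4 FPKM in I/R and 174, 257 and 78.96 FPKM in sham. Cyp4a3 (ENSRNOG00000066878) was at 307, 353 and 132 FPKM in I/R + rapamycin, 574, 409 and 417 FPKM in I/R and 344, 392 and 428 FPKM in sham. I/R + rapamycin 3 was the lowest library for Cyp4a3 and the second highest for Cyp4a2, and I/R 1 was the highest for Cyp4a3 and the lowest for Cyp4a2. Their sum, a quantity chosen after the values were seen and not tested, was 364, 418 and 364 FPKM in I/R + rapamycin, 613, 506 and 497 FPKM in I/R and 518, 649 and 507 FPKM in sham. In the sum all rapamycin-treated libraries lay below all others. In I/R + rapamycin against I/R, the log2 fold change was -0.74 (SE 0.33, edgeR adjusted p = 0.307) for Cyp4a3 and 0.74 (SE 0.70, edgeR adjusted p = 0.649) for Cyp4a2. How the authors' counting placed reads that match both genes is not given in the sources used here, so neither gene's own level is certain. Ppara, the fatty acid receptor that induces Cyp4a genes in rodents, was at 4.51, 6.93 and 6.02 FPKM in I/R + rapamycin, 15.3, 10.02 and 9.82 FPKM in I/R and 7.69, 7.13 and 5.86 FPKM in sham. All I/R libraries were above all others, and Ppara was not called in I/R + rapamycin against I/R (-0.93, SE 0.20, edgeR adjusted p = 0.099) or in I/R against sham (0.74, SE 0.20, edgeR adjusted p = 0.288).

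The promoters of Cyp4a2 and Cyp4a3 show how alike the pair is upstream of the transcript too. Both windows hold the 250 bases before the start in RefSeq's GRCr8 table, on the minus strand of chromosome 5, at chr5:134170909-134171158 for Cyp4a2 and chr5:134352237-134352486 for Cyp4a3, with AGGTCA in capitals:
Cyp4a2: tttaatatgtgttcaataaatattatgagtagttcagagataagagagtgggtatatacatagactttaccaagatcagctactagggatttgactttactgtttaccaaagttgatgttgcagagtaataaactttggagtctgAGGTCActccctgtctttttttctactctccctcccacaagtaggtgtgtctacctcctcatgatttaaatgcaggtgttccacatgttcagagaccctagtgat
Cyp4a3: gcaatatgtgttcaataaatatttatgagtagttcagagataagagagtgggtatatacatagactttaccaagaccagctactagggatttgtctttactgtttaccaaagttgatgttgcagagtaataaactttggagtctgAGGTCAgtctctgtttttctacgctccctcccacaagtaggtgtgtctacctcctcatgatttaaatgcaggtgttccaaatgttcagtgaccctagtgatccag
Of 245 aligned bases 236 were identical (96.3%), and each window held the half-site once. The window of Cyp4a8 held no AGGTCA and shared 64.4% of aligned bases with that of Cyp4a2 and 65.8% with that of Cyp4a3.

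Other fatty acid P450s apart from Cyp4b1 varied less. Cyp2c23 had a mean of 761 ± 123 FPKM in I/R + rapamycin, 778 ± 117 in I/R and 804 ± 91.7 in sham (SD, n = 3 each), and Cyp4f1, which hydroxylates leukotrienes and arachidonate, 113 ± 2.46, 119.9 ± 19.8 and 107 ± 11.2 FPKM in the same order of groups. Their log2 fold changes lay within 0.14 of 0 in every comparison. Cyp4f5 and Cyp4f6, Cyp4v3 and Cyp2u1 were lower, between 1.08 FPKM for Cyp4f5 and 16.3 FPKM for Cyp4f6. Of these, Cyp4v3, whose human counterpart hydroxylates ocular fatty acids, stood at 6.77 ± 1.59 FPKM in I/R + rapamycin, 7.45 ± 1.504 in I/R and 8.92 ± 0.488 in sham (edgeR adjusted p of at least 0.397). Cyp4b1, which acts on fatty acids and on furan toxins, was at 57.2, 49.8 and 33.7 FPKM in I/R + rapamycin, 13.7, 28.2 and 76.2 FPKM in I/R and 24.9, 13.2 and 16.97 FPKM in sham. Every rapamycin-treated library was above every sham library, at a log2 fold change of 1.41 (SE 0.61, edgeR adjusted p = 0.378), and the I/R group ran across both.

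Of the P450s best known for drugs and toxins, Cyp1a1 and Cyp2b2 stood higher after ischaemia in most libraries without passing edgeR's threshold. Cyp1a1 (ENSRNOG00000019500), the classic target of the aryl hydrocarbon receptor, was at 18.4, 18.4 and 8.24 FPKM in I/R + rapamycin, 4.02, 8.95 and 16.8 FPKM in I/R and 6.32, 2.52 and 2.99 FPKM in sham. All rapamycin-treated libraries were above all sham libraries, by a log2 fold change of 2.00 (SE 0.63, edgeR adjusted p = 0.249, DESeq2 adjusted p = 0.0436). I/R libraries spread over both, with a log2 fold change of 1.33 (SE 0.62, edgeR adjusted p = 0.573) against sham and 0.67 (SE 0.60, edgeR adjusted p = 0.631) for I/R + rapamycin against I/R. Ahr, its receptor, was at 7.44, 8.104 and 6.104 FPKM in I/R + rapamycin, 6.39, 6.14 and 10.2 FPKM in I/R and 6.37, 4.88 and 5.22 FPKM in sham. The lowest I/R + rapamycin and I/R values lay below the highest sham value, and its edgeR adjusted p was 0.342 in I/R + rapamycin against sham and 0.512 in I/R against sham.

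Cyp2b2 (ENSRNOG00000062471), known in rat liver as a phenobarbital-induced P450, was at 12.6, 8.01 and 3.77 FPKM in I/R + rapamycin, 3.23, 8.18 and 24.3 FPKM in I/R and 4.39, 1.31 and 2.18 FPKM in sham. The highest library was I/R 3 and the lowest sham 2, and the groups overlapped. The log2 fold change was 1.70 (SE 0.85, edgeR adjusted p = 0.437) in I/R + rapamycin against sham and 2.17 (SE 0.86, edgeR adjusted p = 0.503) in I/R against sham. Reads shared with other Cyp2b genes make its level uncertain. Cyp2d2, which acts on basic drugs, was at 49.3, 47.6 and 68.6 FPKM in I/R + rapamycin, 64.4, 18.8 and 20.3 FPKM in I/R and 36.6, 50.5 and 54.1 FPKM in sham. I/R 2 and I/R 3 were the lowest of the 9 libraries while I/R 1 was the second highest. With all 9 libraries the log2 fold change in I/R + rapamycin against I/R was 0.76 (SE 0.47, edgeR adjusted p = 0.477), and without I/R 1 it was 1.54, and edgeR called Cyp2d2 higher with rapamycin (adjusted p = 0.0291).

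Cyp2e1, which oxidises ethanol and small solvents, was among the highest P450s at 296 ± 10.98 FPKM in I/R + rapamycin, 285 ± 50.4 in I/R and 263 ± 64.7 in sham (SD, n = 3 each), with overlapping groups. Cyp20a1, a P450 of unknown substrate, was at 11.4, 11.4 and 11.4 FPKM in I/R + rapamycin, 14.4, 13.3 and 16.2 FPKM in I/R and 13.01, 14.2 and 13.5 FPKM in sham. Its rapamycin-treated libraries lay close to one another and below all others, at a log2 fold change of -0.29 (SE 0.10, edgeR adjusted p = 0.199) against I/R. Cyp2s1, Cyp2t1 and Cyp2d4 stayed between 1.21 FPKM for Cyp2d4 and 8.65 FPKM for Cyp2s1, with edgeR adjusted p-values of at least 0.518 in each comparison.

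**Figure D3:**
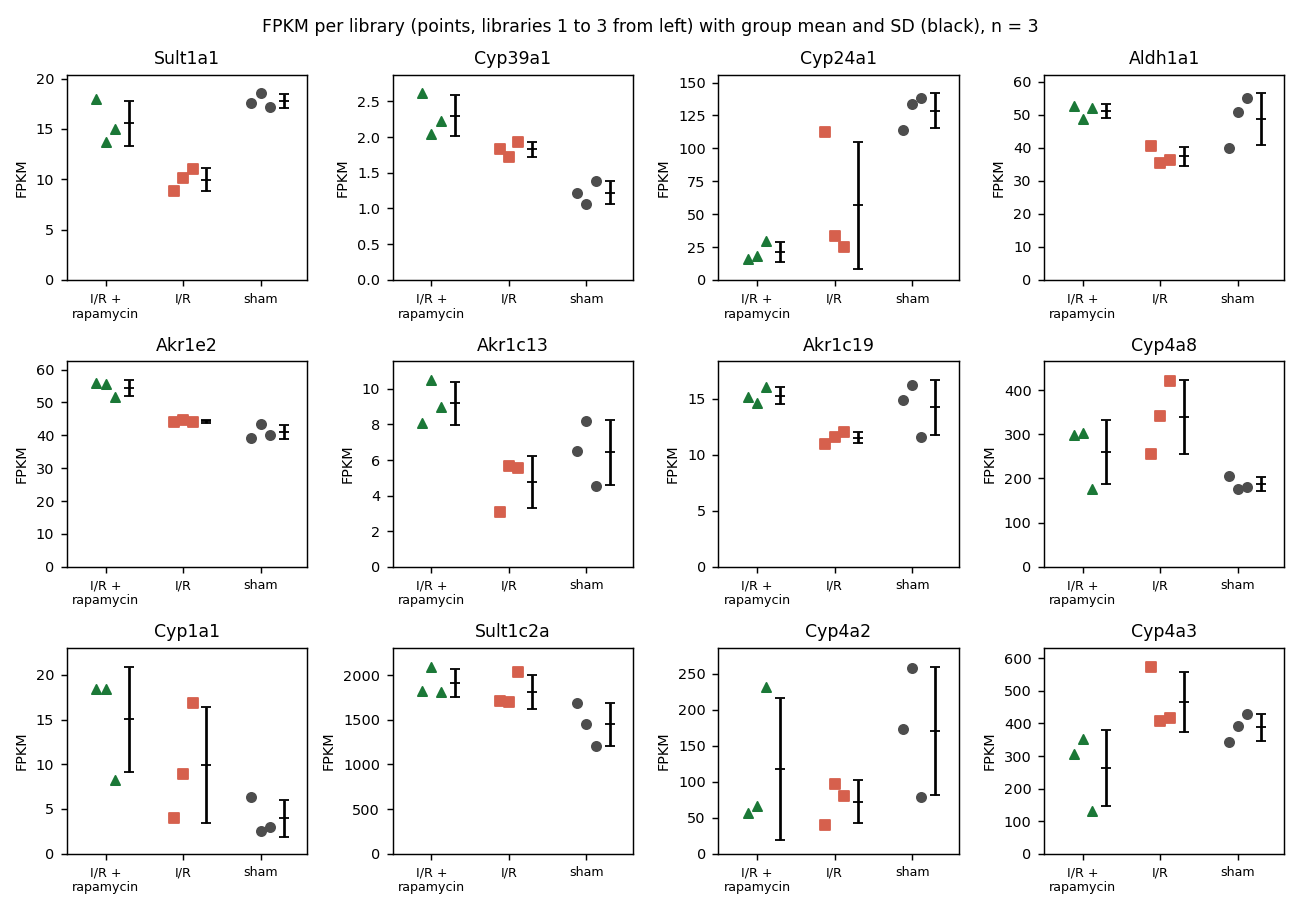
FPKM (vertical axes, from 0) of 12 enzyme genes in the 3 libraries of each group, with the group mean and SD beside the marks. Sult1a1, Akr1e2 and Cyp39a1 have tight groups, while Cyp24a1, Cyp4a2 and Cyp1a1 have libraries of 1 group at opposite ends of the range.

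The 3 UDP-glycosyltransferases had 3 different patterns, and none was called by edgeR or DESeq2. Ugt2b35 (ENSRNOG00000001980), of the subfamily that glucuronidates steroids, bile acids and drugs, was at 306, 326 and 175 FPKM in I/R + rapamycin, 179, 183 and 157 FPKM in I/R and 197, 267 and 18.9 FPKM in sham. Sham 3 stood alone below the other 8 libraries, more than 8-fold below the next lowest, while sham 2 was among the highest. Its edgeR adjusted p was 0.712 in I/R + rapamycin against I/R, 0.72 in I/R + rapamycin against sham and 0.987 in I/R against sham. Ugt1a8, one of the variants read from the shared Ugt1a locus, was at 27.6, 27.97 and 28.5 FPKM in I/R + rapamycin, 29.5, 36.01 and 35.2 FPKM in I/R and 32.7, 36.6 and 42.5 FPKM in sham. All rapamycin-treated libraries were below all others in FPKM, while in normalised counts they overlapped with I/R. Against sham the log2 fold change was -0.37 (SE 0.13, edgeR adjusted p = 0.26). Ugt1a variants share their last exons, so reads there could belong to any of them. Ugt8, which adds galactose to ceramide, was at 5.87 ± 0.653 FPKM in I/R + rapamycin, 5.45 ± 0.565 in I/R and 5.14 ± 0.758 in sham (SD, n = 3 each), with overlapping groups.

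Sult1a1 (ENSRNOG00000019342), the sulfotransferase of simple phenols, had the smallest p of the 56 genes in both comparisons that involve untreated I/R. It was at 18.01, 13.7 and 14.99 FPKM in I/R + rapamycin, 8.803, 10.1 and 11.02 FPKM in I/R and 17.6, 18.6 and 17.2 FPKM in sham. All I/R libraries were below all others, and the rapamycin-treated libraries reached the sham range in 1 of 3. In I/R + rapamycin against I/R the log2 fold change was 0.71 (SE 0.14, edgeR adjusted p = 0.0879, DESeq2 adjusted p = 0.00083). In I/R against sham it was -0.85 (SE 0.14, edgeR adjusted p = 0.0856, DESeq2 adjusted p = 2.1e-05). I/R + rapamycin stood -0.15 from sham (SE 0.14, edgeR adjusted p = 0.678). The fall in I/R against sham was called by limma on log2(FPKM + 1), with an adjusted p of 0.026, and by edgeR with the length trend removed, with an adjusted p of 0.0262. Of 18 alternative settings 4 called this fall. In I/R + rapamycin against I/R only DESeq2 called the gene, and edgeR with the length trend removed did not. Over the 18 settings the log2 fold change there ran from 0.51 to 0.78. The implied length of Sult1a1 was 1396 bases.

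The 250 bases before the start of Sult1a1 in RefSeq's GRCr8 table lie at chr1:190706113-190706362 on the minus strand and are shown as those of the gene that separated the I/R group most clearly:
Sult1a1: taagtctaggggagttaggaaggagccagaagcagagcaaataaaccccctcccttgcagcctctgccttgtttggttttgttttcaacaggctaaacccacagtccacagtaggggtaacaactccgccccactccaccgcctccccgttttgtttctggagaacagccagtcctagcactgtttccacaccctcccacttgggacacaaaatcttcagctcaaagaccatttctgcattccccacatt
The window has no capitals because it held none of the 3 motifs searched.

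The other sulfotransferases followed other libraries. Sult1c2a (ENSRNOG00000042111) was at 1821, 2090.4 and 1811 FPKM in I/R + rapamycin, 1707, 1699 and 2029 FPKM in I/R and 1683, 1456 and 1207 FPKM in sham. All libraries from ischaemic kidneys were above all sham libraries, with a log2 fold change of 0.45 (SE 0.14, edgeR adjusted p = 0.222, DESeq2 adjusted p = 0.0392) in I/R + rapamycin against sham and 0.30 (SE 0.14, edgeR adjusted p = 0.558) in I/R against sham. Close copies of Sult1c2 genes could share its reads. Sult1b1, which sulfates thyroid hormone and phenols, was at 3.94, 5.42 and 25.3 FPKM in I/R + rapamycin, 19.8, 44.9 and 35.2 FPKM in I/R and 26.97, 37.2 and 25.9 FPKM in sham. I/R + rapamycin 1 and 2 stood far below the other 7 libraries and I/R + rapamycin 3 stood just under the lowest sham library, at edgeR adjusted p-values of 0.363 against I/R and 0.464 against sham. Sult2b1, the cholesterol sulfotransferase, was at 15.6, 13.4 and 6.43 FPKM in I/R + rapamycin, 6.08, 8.05 and 15.96 FPKM in I/R and 8.58, 6.44 and 7.37 FPKM in sham. I/R + rapamycin 1 and 2 and I/R 3 were the highest, and the groups overlapped. Sult5a1 stayed between 1.46 and 3.32 FPKM.

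Aldehyde dehydrogenases were the steadiest family: 1 of 13 genes differed 2-fold or more between libraries of the same group, and none was called by edgeR. Among those that turn retinal into retinoic acid, Aldh1a1 (ENSRNOG00000017619) was at 52.6, 48.9 and 52.2 FPKM in I/R + rapamycin, 40.5, 35.4 and 36.3 FPKM in I/R and 39.9, 51.03 and 55.2 FPKM in sham. All rapamycin-treated libraries were above all I/R libraries, and sham ran from the I/R range to the rapamycin range. The log2 fold change was 0.52 (SE 0.13, edgeR adjusted p = 0.125, DESeq2 adjusted p = 0.00624) in I/R + rapamycin against I/R, while it was -0.41 (SE 0.13, edgeR adjusted p = 0.348) in I/R against sham. Aldh1a3 was at 3.38, 4.31 and 6.102 FPKM in I/R + rapamycin, 5.29, 4.42 and 4.35 FPKM in I/R and 6.81, 4.82 and 10.1 FPKM in sham. Sham 3 was the highest library and the groups overlapped, with log2 fold changes of -0.61 in I/R + rapamycin against sham and -0.65 in I/R against sham (edgeR adjusted p = 0.347 and 0.495). Aldh1a2 stayed between 3.99 and 5.04 FPKM in the 9 libraries.

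Aldh8a1 (ENSRNOG00000014907), which oxidises an aldehyde of the kynurenine pathway, was at 123, 158 and 155 FPKM in I/R + rapamycin, 197, 183 and 192 FPKM in I/R and 175, 169 and 211 FPKM in sham. The rapamycin-treated libraries were all below the rest, at log2 fold changes of -0.32 against I/R and -0.31 against sham (SE 0.12 each, edgeR adjusted p = 0.24 and 0.304). The enzymes of amino acid and carnitine metabolism were high and level across groups. Aldh6a1 of valine breakdown had a mean of 448 ± 28.7 FPKM in I/R + rapamycin, 482 ± 41.3 in I/R and 459 ± 4.75 in sham (SD, n = 3 each). Aldh7a1 of lysine breakdown had 232 ± 8.86, 234 ± 10.97 and 216 ± 28.9 FPKM, and Aldh9a1 of carnitine synthesis 190.0 ± 10.6, 187 ± 4.68 and 186 ± 10.4 FPKM, in the same order of groups. Their log2 fold changes lay between -0.04 and 0.14. Aldh2, the mitochondrial enzyme that clears acetaldehyde, was at 90.7 ± 5.62 FPKM in I/R + rapamycin, 91.9 ± 6.15 in I/R and 106 ± 17.3 in sham, and Aldh1l1 of folate metabolism was at 42.7 ± 6.11, 45.3 ± 6.996 and 39.5 ± 4.33 FPKM. Aldh16a1, Aldh3a2 of fatty aldehyde oxidation, Aldh5a1 of GABA breakdown and Aldh18a1 of proline synthesis stood between 1.54 FPKM for Aldh18a1 and 16.2 FPKM for Aldh16a1. Within these 4 the smallest edgeR adjusted p was 0.576, for Aldh3a2 in I/R + rapamycin against I/R.

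Of the aldo-keto reductases, 8 of 11 had fitted log2 fold changes above 0 with rapamycin against I/R, as did 8 of 11 against sham, in comparisons that share the rapamycin-treated libraries. Over the tested genes with FPKM values, 6112 and 5793 of 11232 did, and over the aldehyde dehydrogenases 7 and 9 of 13. The median log2 fold changes of the aldo-keto reductases were 0.16 and 0.17. Implied lengths of these 11 genes ran from 1430 to 2733 bases, below the median of 3203 over the genes of the table. Shorter genes were fitted higher with rapamycin, with a Spearman correlation of -0.48 against I/R and -0.26 against sham. The part of this length trend in the family's counts and medians was not tested. Akr1e2 (ENSRNOG00000017165), a reductase of 1,5-anhydro-D-fructose, was at 55.9, 55.6 and 51.5 FPKM in I/R + rapamycin, 43.99, 44.6 and 44.1 FPKM in I/R and 39.2, 43.5 and 40.2 FPKM in sham. All rapamycin-treated libraries were above all others, and I/R and sham differed little. The log2 fold change was 0.36 (SE 0.089, edgeR adjusted p = 0.125, DESeq2 adjusted p = 0.015) against I/R and 0.45 (SE 0.089, edgeR adjusted p = 0.0935, DESeq2 adjusted p = 0.0016) against sham. Over 18 alternative settings it ran from 0.18 to 0.42 against I/R and from 0.36 to 0.52 against sham, and only DESeq2 called the gene. Akr1a1 (ENSRNOG00000016727), which also serves vitamin C synthesis in rodents, was at 439.6, 470.1 and 457 FPKM in I/R + rapamycin, 391, 415 and 354 FPKM in I/R and 323, 423 and 387 FPKM in sham. The rapamycin-treated libraries again stood above all others, at log2 fold changes of 0.30 against I/R and 0.31 against sham (edgeR adjusted p = 0.308 and 0.351). Akr7a2 and Akr7a3, which reduce aflatoxin dialdehyde, were at 276 ± 16.3 and 108 ± 5.98 FPKM in I/R + rapamycin, 237 ± 26.4 and 104 ± 4.78 FPKM in I/R, and 252 ± 38.1 and 98.9 ± 16.6 FPKM in sham (SD, n = 3 each). For Akr7a2 all rapamycin-treated libraries were above all I/R libraries in FPKM, at a log2 fold change of 0.29 (SE 0.15, edgeR adjusted p = 0.367), and the other pairs of groups overlapped for both genes.

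The Akr1c genes, hydroxysteroid dehydrogenases that lie close together and share sequence, differed among themselves. Akr1c13 was at 8.104, 10.5 and 8.98 FPKM in I/R + rapamycin, 3.05, 5.69 and 5.53 FPKM in I/R and 6.52, 8.19 and 4.56 FPKM in sham. Akr1c19 was at 15.2, 14.6 and 16.1 FPKM in I/R + rapamycin, 10.97, 11.6 and 12.01 FPKM in I/R and 14.9, 16.3 and 11.5 FPKM in sham. For both, all rapamycin-treated libraries were above all I/R libraries, and sham overlapped with both of those groups. In I/R + rapamycin against I/R the log2 fold change was 1.01 (SE 0.28, edgeR adjusted p = 0.156, DESeq2 adjusted p = 0.0173) for Akr1c13 and 0.47 (SE 0.13, edgeR adjusted p = 0.156, DESeq2 adjusted p = 0.0459) for Akr1c19. Over 18 alternative settings it ran from 0.76 to 1.19 for Akr1c13 and from 0.29 to 0.51 for Akr1c19, and only DESeq2 called them. Akr1c2 (ENSRNOG00000029844) was at 133, 117 and 41.1 FPKM in I/R + rapamycin, 0.389, 95.6 and 200.3 FPKM in I/R and 74.4, 41.6 and 67.6 FPKM in sham. I/R 1 was 514-fold below I/R 3, the widest gap within a group of any of the 56 genes. Akr1c1 was at 102, 111 and 111 FPKM in I/R + rapamycin, 58.8, 173 and 139 FPKM in I/R and 109, 126 and 201 FPKM in sham. It too was lowest in I/R 1, and its highest library was sham 3. How reads common to the Akr1c genes were counted is not given in the sources used here, so each of these levels is uncertain.

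Of the aldose reductase subfamily, Akr1b1, which makes sorbitol as an osmolyte in the medulla, was at 9.703, 7.43 and 8.44 FPKM in I/R + rapamycin, 8.27, 8.24 and 7.53 FPKM in I/R and 9.03, 8.69 and 12.00 FPKM in sham. All I/R libraries were below all sham libraries (log2 fold change -0.33, SE 0.15, edgeR adjusted p = 0.528). Akr1b7 was at 18.2, 13.1 and 1.11 FPKM in I/R + rapamycin, 2.84, 18.8 and 60.5 FPKM in I/R and 5.71, 1.65 and 0.218 FPKM in sham. It ranged more than 16-fold within every group and overlapped between all of them. Akr1b8 was at 11.4, 13.5 and 27.8 FPKM in I/R + rapamycin, 36.7, 22.7 and 17.2 FPKM in I/R and 20.00, 22.8 and 44.2 FPKM in sham. Its high libraries, sham 3, I/R 1 and I/R + rapamycin 3, were among the 4 lowest for Akr1b7.

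Libraries of the same group differed more often in the enzyme genes than in the table as a whole, as counts without a test. A 2-fold or larger difference within at least 1 group was seen in 16 of 56 enzyme genes (28.6%), against 7.8% of the genes of the FPKM table. A 5-fold difference was seen in 6 (10.7%, against 0.872%) and a 10-fold difference in 3 (5.36%, against 0.312%). By family, the 16 were 8 of 24 Cyp, 1 of 3 Ugt, 2 of 5 Sult, 1 of 13 Aldh and 4 of 11 Akr genes. The map of levels relative to each gene's mean shows Akr1b7, Akr1c2, Cyp2b2, Sult1b1 and Ugt2b35 with the strongest departures. On the first principal component of the 56 genes alone (54.1% of their variance), I/R 1 and sham 3 lay opposite to I/R 3 and I/R + rapamycin 1.

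**Figure D4:**
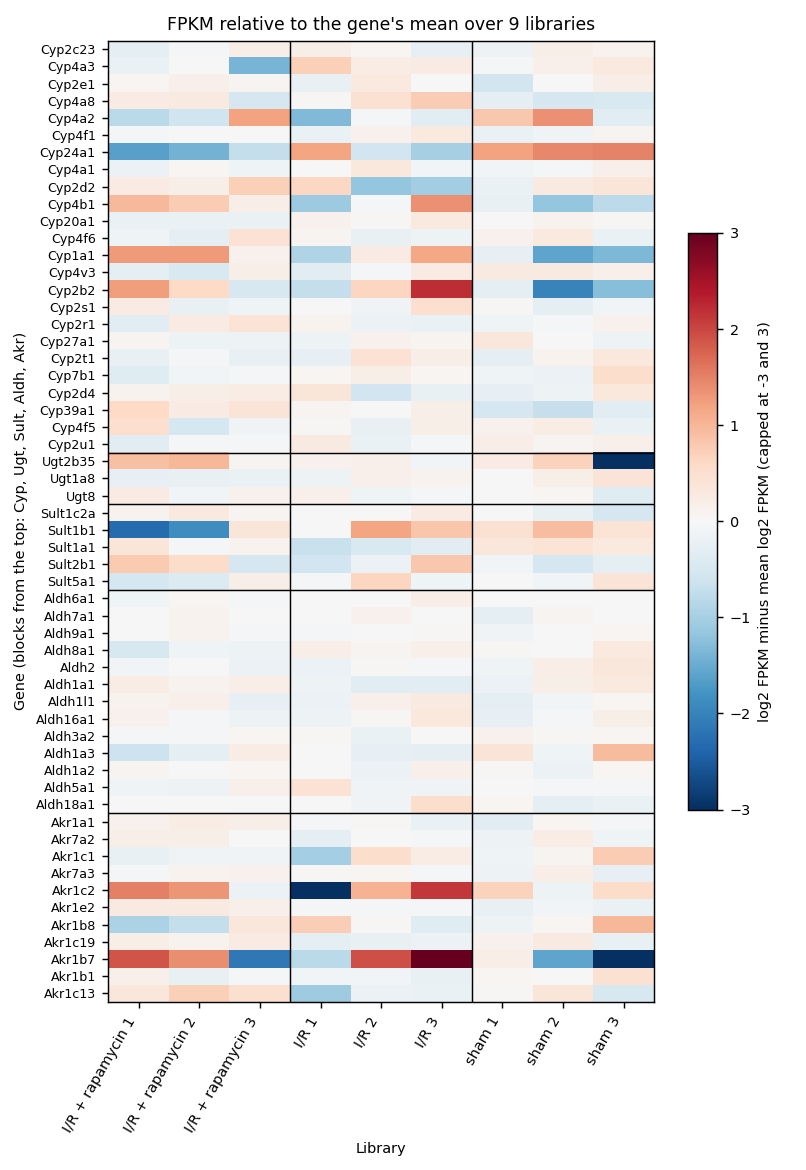
Log2 FPKM minus the gene's mean log2 FPKM over the 9 libraries (colour, capped at -3 and 3) for the 56 enzyme genes (vertical axis) in each library (horizontal axis), with lines between families and groups. Strong colours lie in single libraries of a group more than in whole groups.

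Markers of the parts of the nephron were set beside these genes, and few correlations passed the adjustment given below. Of 6 listed markers of the S3 segment, the last stretch of the proximal tubule, 5 had a row (Slc5a1, Slc7a13, Slc22a7, Slc22a13 and Acsm3) and none was at 0. Their summed level was 705, 644 and 283 FPKM in I/R + rapamycin, 318, 494 and 892 FPKM in I/R and 357, 199 and 234 FPKM in sham, most of it from the amino acid transporter Slc7a13 in every library except I/R 1. The 2 ischaemic groups overlapped each other and sham on this sum. Acsm3 went its own way: edgeR called it lower in I/R + rapamycin than in I/R (log2 fold change -1.62, SE 0.17, adjusted p = 0.0285) and higher in I/R than in sham (1.42, SE 0.17, adjusted p = 0.019).

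Over the 9 libraries, FPKM of the 56 genes was set against the summed level of 10 marker lists, 560 relations in all, on the log2 scale with exact permutation tests, two-sided and adjusted over the 560. The unadjusted exact permutation p for Pearson's r was under 0.05 for 14 of 56 genes with the S3 list and 14 with the podocyte list. It was so for 12 with the thick limb list, 8 with the red cell list and 1 to 7 with each other list. After adjustment only relations with the S3 and thick limb lists passed. Cyp2b2 followed the S3 sum with Pearson's r = 0.976 (exact permutation p = 1.65e-05, adjusted 0.00926) and Spearman's rho = 0.967 (exact permutation p = 0.000165, adjusted 0.0463). Without I/R + rapamycin 1 and I/R 3, the libraries farthest from the median sum, r was 0.954, and with each library taken relative to its group mean it was 0.96. Cyp1a1, Sult2b1, Cyp4a8, Akr1b7 and Cyp4b1 had r between 0.900 and 0.930 with the S3 sum and did not pass the adjustment (adjusted exact permutation p of 0.103 to 0.13). With the sum of 3 thick limb markers, which was 1161, 737 and 583 FPKM in I/R + rapamycin, 571, 739 and 1124 FPKM in I/R and 713, 611 and 679 FPKM in sham, Sult2b1 had r = 0.917 (adjusted exact permutation p = 0.0224) and Cyp2c23 r = -0.922 (adjusted exact permutation p = 0.0473). Their rho did not pass the adjustment (0.14 and 0.189), and without the same 2 libraries r was 0.794 and -0.818. The part of nephron segment content in the differences between groups was not tested.

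**Figure D5:**
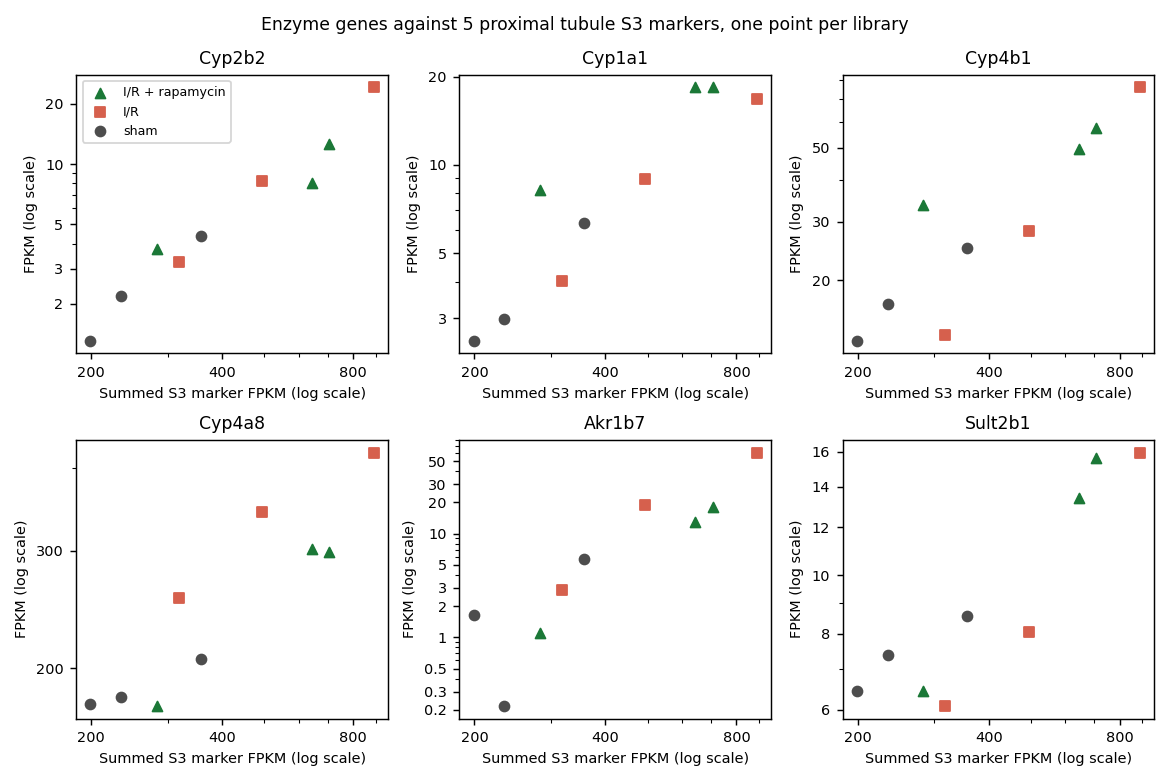
FPKM of 6 enzyme genes (vertical log axes) against the summed FPKM of 5 S3 markers (horizontal log axis), one mark per library coloured by group. I/R 3 and I/R + rapamycin 1 and 2 lie at the right with the highest values of Cyp1a1 and Cyp4b1, and sham 2 and 3 lie farthest left.

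The markers of the S1 and S2 segments, the earlier stretches of the proximal tubule, had all 8 members measured, none at 0, with sums of 1803 to 2250 FPKM in I/R + rapamycin, 2057 to 2524 FPKM in I/R and 1927 to 2624 FPKM in sham. Red cell markers (2 of 5 measured) summed to 23.2 to 149 FPKM in I/R + rapamycin, 373 to 971 FPKM in I/R and 67.8 to 728 FPKM in sham, and the part of this difference in the enzyme genes was not tested. Podocyte and endothelial markers, which tubular cells lack, were all measured (4 of 4 each, none at 0), with sums of 75.03 to 113 and 108 to 123 FPKM in I/R + rapamycin, 82.6 to 112 and 117 to 120.5 FPKM in I/R and 132 to 141 and 101 to 131 FPKM in sham, so the libraries did not hold tubular cells alone. Of 8 hepatocyte markers 1 had a row, Fgb, at 1.59 to 8.92 FPKM over the 9 libraries. None of the 5 adrenal markers had a row, and the same held for the 6 sex-linked genes listed, so the sex of the animals is not analysed here.

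Genes that serve or control these enzymes were taken from 5 lists, of which 83 of 98 members were measured. By edgeR 0, 2 and 0 of the 83 passed in I/R + rapamycin against I/R, I/R + rapamycin against sham and I/R against sham. The unadjusted edgeR p was under 0.05 for 14, 17 and 12 of them, and for 16.3%, 13.8% and 9.42% of all tested genes. The 2 that passed were Inmt, which methylates tryptamine and other amines, and Gpx2, a glutathione peroxidase induced by NFE2L2. Inmt was at 57.4, 52.8 and 47.9 FPKM in I/R + rapamycin, 39.4, 49.4 and 54.6 FPKM in I/R and 26.1, 26.6 and 22.6 FPKM in sham. Libraries from ischaemic kidneys were all above sham, and Inmt rose in I/R + rapamycin against sham (1.12, SE 0.14, edgeR adjusted p = 0.0199) and had 0.91 (SE 0.14, edgeR adjusted p = 0.0677) in I/R against sham. Gpx2 was at 8.24, 5.96 and 7.54 FPKM in I/R + rapamycin, 3.74, 4.39 and 4.53 FPKM in I/R and 2.77, 2.45 and 2.64 FPKM in sham. The 3 groups did not overlap, and Gpx2 rose in I/R + rapamycin against sham (1.51, SE 0.18, edgeR adjusted p = 0.0154), with 0.84 (SE 0.18, edgeR adjusted p = 0.0952) against I/R.

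Among the remaining partners, Por, the reductase that passes electrons to microsomal P450s, was at 65.02, 66.2 and 55.8 FPKM in I/R + rapamycin, 65.8, 82.96 and 75.1 FPKM in I/R and 47.1, 56.9 and 63.2 FPKM in sham. All I/R libraries were above all sham libraries (log2 fold change 0.40, SE 0.15, edgeR adjusted p = 0.443). Papss1 and Papss2, which make the sulfate donor, and Ugdh, which makes the glucuronate donor, had log2 fold changes between -0.07 and 0.09 in I/R against sham. Of the 22 receptors and transcription factors measured, 6 had a negative log2 fold change and 1 a positive one at an unadjusted edgeR p under 0.05 in I/R + rapamycin against I/R, where 9.14% and 7.11% of all tested genes did. Stat5b, which carries growth hormone signals to sex-dependent P450s in rodent liver, was at 3.34, 4.07 and 4.27 FPKM in I/R + rapamycin, 6.27, 4.36 and 4.58 FPKM in I/R and 7.09, 7.15 and 6.51 FPKM in sham. All ischaemic libraries were below all sham libraries, with a log2 fold change of -0.78 (SE 0.14, edgeR adjusted p = 0.0717) in I/R + rapamycin against sham and -0.48 (SE 0.14, edgeR adjusted p = 0.3) in I/R against sham.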

How the data were processed

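RNA of 9 rat kidney samples was sequenced, 3 libraries in each of 3 groups, and the labels put every library in batch 1. For 30454 Ensembl gene IDs the authors deposited whole-number read counts that were not normalised, and for 11235 genes also a table of FPKM values, which per the file headers are scaled to transcript length and to the fragments of a library. That table alone supplies gene symbols. HISAT2, StringTie, cutadapt, DESeq2 and the build Rnor_6.0 are named in the submitters' processing notes, without roles or versions. The strand setting and how reads were counted are not given in the sources, so reads of overlapping or antisense genes cannot be told apart.

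Counts of all libraries were fitted together in R 4.3.3 with edgeR 4.0.16 (TMM factors, default filter on low counts, robust quasi-likelihood tests), and an adjusted p (Benjamini-Hochberg over the 17335 genes tested) under 0.05 was a call. Standard errors are the log2 fold change over the square root of the F statistic. Levels are FPKM with the SD over 3 libraries, and fold changes come from counts. The script was tested on simulated data. Alternatives used DESeq2 1.42.0, limma 3.58.1 on log2(FPKM + 1) and log2(FPKM + 0.1), other scaling factors, filters and thresholds, a replicate block, the 6 libraries compared, and each library left out; leaving out I/R 1 and sham 3 together, a fit restricted to genes of the FPKM table and removal of the length trend were added after seeing the data. Libraries of a group differed from each other by a chi-square per degree of freedom of 34.2 to 137, so none was treated as a copy.

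The enzyme genes, the companion and marker lists and the rule for naming genes were chosen with earlier results of these data known. The rule names every called enzyme gene, up to 12 with the smallest unadjusted p under 0.05 in each comparison, the 4 highest of each family and a set list of well-known members; the remaining members, the Cyp4a2 and Cyp4a3 sum and the comments on single libraries were added after their values were seen. Promoter windows are from RefSeq's table for GRCr8, and no coordinates of the deposited files are printed because their build is unsettled.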

Additional observations from a re-analysis of the deposited data

How the results depend on the processing

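With all libraries and TMM factors edgeR called no enzyme gene, so no such call could turn in direction. Of 3024 fold changes computed under the alternatives 153 had another sign than in that fit. None of the 153 was for a gene with an unadjusted edgeR p under 0.05 in that fit or was called under the alternative. The alternatives reuse the same libraries, so they do not test the directions anew. The count of enzyme genes called by edgeR was 0 in each comparison. With DESeq2 it was 5 in I/R + rapamycin against I/R, 5 in I/R + rapamycin against sham and 2 in I/R against sham, and the cause of this gap was not tested. At an adjusted p under 0.1 edgeR called 1, 2 and 1 in the same order. With the 6 libraries of I/R + rapamycin and sham alone it called 1 there (Cyp24a1). In I/R against sham, limma called 1 (Sult1a1) on log2(FPKM + 1) and 1 on log2(FPKM + 0.1). Without I/R 1 and sham 3 the counts were 2 (Cyp24a1 and Cyp39a1) in I/R + rapamycin against sham and 1 (Cyp2d2) in I/R + rapamycin against I/R. With the length trend removed they were 1 (Cyp39a1) in I/R + rapamycin against sham, 1 (Sult1a1) in I/R against sham and 0 in I/R + rapamycin against I/R. Leaving out each library in turn gave 0 to 1 in I/R + rapamycin against I/R (Cyp2d2 without I/R 1), 0 to 0 in I/R + rapamycin against sham, and 0 to 1 in I/R against sham (Cyp24a1 without I/R 1). The other settings also gave 0.

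The labels' replicate numbers did not pair the libraries. Log2 normalised counts were taken relative to each gene's group mean, and these deviations were correlated between libraries. For same-numbered libraries the correlations ran from -0.213 to 0.136. For 1 of 9 libraries the best correlate in each of the other groups had its own number. With the replicate number as a block, edgeR called 0 enzyme genes in each comparison, and 1, 7 and 1 of all genes, against 22, 27 and 10 without it, in I/R + rapamycin against I/R, I/R + rapamycin against sham and I/R against sham.

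With 3 libraries in a group, 1 library decides several values, above all for Cyp24a1, Cyp2d2, Akr1c2 and Ugt2b35. Genes below about 1 FPKM are outside the table, and a gene without a row there need not be low. The levels of near-identical copies among the Cyp4a, Cyp2b, Ugt1a, Ugt2b, Sult1c and Akr1c genes depend on a counting rule that the sources do not give.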

Other observations

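Hsd11b1, an enzyme outside the 5 families that regenerates active glucocorticoid, stood higher with rapamycin without passing edgeR's threshold. It was at 57.5, 57.9 and 54.9 FPKM in I/R + rapamycin, 47.1, 43.4 and 38.5 FPKM in I/R and 43.7, 46.2 and 37.7 FPKM in sham. All rapamycin-treated libraries were above all others, with log2 fold changes of 0.47 against I/R and 0.46 against sham (SE 0.11 each, edgeR adjusted p = 0.125 and 0.139). Hsd11b1 was chosen for this paragraph after its values were seen, and the 2 comparisons share the rapamycin-treated libraries.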
